A study of Homo sapiens with 6 samples.

Results

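The endocrine fibroblast growth factors FGF19 and FGF21, the receptors FGFR1, FGFR2, FGFR3 and FGFR4, and the klotho coreceptors KLB and KL were followed in Huh7 cells, a line established from a human hepatocellular carcinoma. The members are 8 genes of 18132 measured, taken by symbol from the platform annotation, with 34 probe sets of 49293 between them. Transcripts were measured on 6 one-colour arrays of logarithmically growing cells, 3 of Huh7 cells labelled control and 3 labelled KCa3.1 silenced, which the labels also call a knockdown. KCa3.1 is a calcium-activated potassium channel encoded by KCNN4, and the labels give neither the means of silencing nor the treatment of the control. No other agent is named for either group, and nothing says that the replicates were separate cultures, so the p-values measure a spread that may be technical.

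Endocrine FGFs bind heparan sulfate weakly, circulate as hormones and need a klotho protein beside an FGF receptor to signal. FGF19 is made in the ileum in response to bile acids and, through FGFR4 and beta-klotho on hepatocytes, represses bile acid synthesis. FGF21 is a hepatokine of fasting and cellular stress that acts mainly through FGFR1 and beta-klotho, and alpha-klotho serves FGF23 in the kidney. FGF19, FGFR4 and KLB are often made together by hepatocellular carcinoma cells, which can drive their own growth through this loop.

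Values are log2 RMA values centred per probe set near 0, so they show differences between arrays but no level of expression. Whether a member or a hepatocyte marker was expressed above background therefore cannot be read from them, nor can the members be ordered by level. In the arrays labelled silenced KCNN4 was not lower: its difference was -3e-04 on the log2 scale, with a 95% interval of -0.16 to 0.16 (limma adjusted p = 0.999), so all directions are between arrays as labelled. Its 3 probe sets are all of a kind that can match other transcripts, so this check rests on the platform annotation. Of 8 measured hepatocyte markers 5 were higher, APOA1, AFP, SERPINA1, APOB and FGB (limma adjusted p under 0.05, median change of the 8 0.289), where 7.14% of all genes were higher. TF went the other way without passing, at -0.19 (SE 0.061, limma adjusted p = 0.075). Of 5 cholangiocyte markers 4 were lower, KRT7, KRT19, EPCAM and SOX9 (median -0.396), where 6.19% of all genes were lower. CFTR went the other way without passing, at 0.125 (SE 0.073, limma adjusted p = 0.359). FGB and SOX9 no longer passed when any 1 array other than control replicate 1 was left out, nor did EPCAM when control replicate 2 or 3, or silenced 1 or 2, was. Of 8 fibroblast markers 1 was higher, COL1A2, or 12.5% called, near the 13.3% of all genes. The other 7 did not pass, with changes on both sides of 0 and a lowest change of -0.08. By limma no endothelial marker of 5 and no leukocyte marker of 4 passed (0 in each, and 0 and 1 at an unadjusted p under 0.05). These markers carry no level here. The part of these marker shifts in the results below was not tested.

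KL was lower and FGFR1 and FGFR3 were higher in the silenced arrays, and the other 5 members did not pass the test (limma, adjusted p under 0.05 over all genes). Thus 3 of the 8 members were called, 2 higher and 1 lower, where 13.3% of all genes were called, 7.14% higher and 6.19% lower. Groups were free of overlap in 6 of the 8 members, against 29.3% of all genes. The median size of the change was 0.20 among the members and 0.08 among all genes on the log2 scale. The members were chosen with earlier results of these data known, so these contrasts are not a test of the family. KL ranked at percentile 99.4 of all genes by size of change, FGFR3 at 89.6, FGFR1 at 88.5 and FGFR2 at 13.6. The count of higher members was 2 with all arrays, 1 without control replicate 1, control replicate 3 or silenced replicate 1, and 0 without silenced replicate 3.

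**Figure D1:**
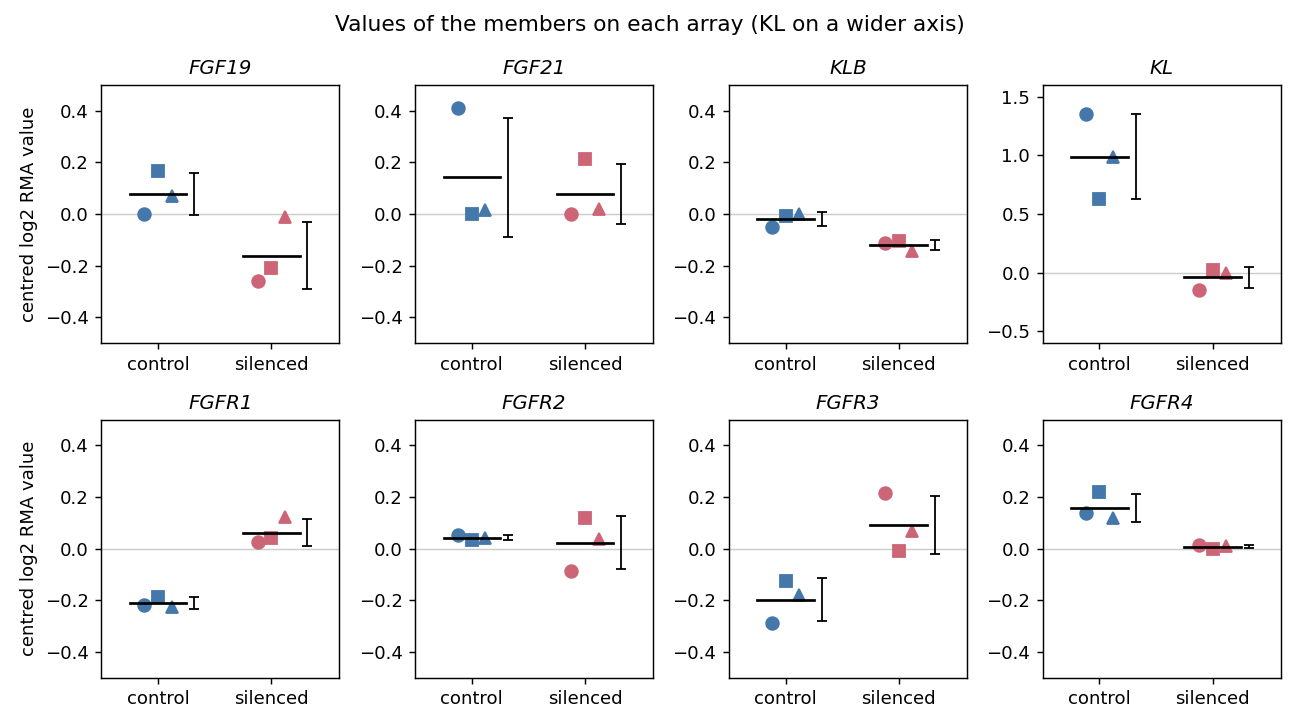
Centred log2 RMA value of each member (vertical axis) on the 3 control and 3 silenced arrays, with circles, squares and triangles for replicates 1, 2 and 3, a bar at the group mean and a whisker for ± 1 SD. KL has a wider vertical axis; its control arrays reach from 0.624 to 1.35 and its silenced arrays from -0.147 to 0.023.

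Of the ligands, FGF19 read 0, 0.165 and 0.068 on control arrays 1 to 3 and -0.261, -0.211 and -0.013 on silenced arrays 1 to 3. All silenced values lay below all control values, with silenced replicate 3 just under the lowest control. The means were 0.077 ± 0.083 and -0.161 ± 0.131 (SD, n = 3 each), a log2 change of -0.24 (SE 0.078) that did not pass (limma adjusted p = 0.084). Without silenced replicate 3 the change was -0.31 and passed (limma adjusted p = 0.037), and over all arrays left out in turn the adjusted p ranged from 0.037 to 0.25. FGF19 was measured by 1 probe set, and in the fit over probe sets the same values did not pass in either case. There the limma adjusted p was 0.126 with all arrays and 0.074 without silenced replicate 3.

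FGF21 read 0.409, 0 and 0.015 on the control arrays and 0, 0.213 and 0.019 on the silenced arrays. The groups overlapped, and control replicate 1 was the highest of the 6. The change was -0.06 with a 95% interval of -0.32 to 0.19 (limma adjusted p = 0.81), and it was 0.07 without control replicate 1. It too was measured by 1 probe set.

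The FGF21 promoter is shown because genes of its known regulators were among those called. The 250 bases before its annotated start lie at chr19:48755274-48755523 on the plus strand (RefSeq, GRCh38.p14). Capitals mark the match to the C/EBP-ATF composite element, searched as TGATGNAA on both strands and found here on the opposite strand.
FGF21: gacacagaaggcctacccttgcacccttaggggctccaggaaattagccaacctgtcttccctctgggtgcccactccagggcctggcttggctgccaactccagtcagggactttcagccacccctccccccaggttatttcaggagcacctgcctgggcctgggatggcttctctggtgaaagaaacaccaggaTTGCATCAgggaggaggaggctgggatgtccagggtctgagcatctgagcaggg
This is the kind of element through which ATF4 and its partners act in amino acid and endoplasmic reticulum stress. The match begins 54 bases before the start, and 3.14% of the 35116 promoter windows of this length hold one. A window of FGFR2, which was not called, also holds one, 191 bases before its start. Such a match is a description of letters and not evidence of binding. ATF4 itself had a change of -0.18 (SE 0.058, limma adjusted p = 0.081), which passed only with array weights (adjusted p = 0.035) and ranged from 0.062 to 0.22 with arrays left out in turn.

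The list of FGF21 regulators also holds kinases and a pseudokinase of stress signalling, which are not transcription factors. Of its 19 measured genes, 1 was higher, 4 were lower and 14 did not pass. That is 26.3% called against 13.3% of all genes, with a median change of -0.011. EIF2AK3, which encodes the endoplasmic reticulum kinase PERK that raises ATF4 translation, was 1.51-fold lower (limma adjusted p = 0.00036). DDIT3, the stress factor CHOP, was 1.47-fold lower, RORA, a nuclear receptor, 1.45-fold lower and TRIB3, a pseudokinase induced by ATF4, 1.22-fold lower. DDIT3 was measured only by probe sets that can match other transcripts. TRIB3 no longer passed when control replicate 2 or silenced replicate 2 was left out. PPARGC1A, the metabolic coactivator PGC-1alpha, was 1.48-fold higher (limma adjusted p = 0.00039). PPARA, the fasting receptor that induces FGF21 in liver, had a change of -0.02 (SE 0.061, limma adjusted p = 0.92). FGF21 itself did not pass on the same arrays.

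Of the coreceptors, KL, which encodes alpha-klotho, fell most. It read 1.35, 0.624 and 0.989 on the control arrays and -0.147, 0.023 and 0 on the silenced arrays. The groups were far apart, and the control arrays spread more than the silenced ones, with control replicate 2 the lowest of them. The means were 0.989 ± 0.364 and -0.041 ± 0.092 (SD, n = 3 each), a 2.04-fold fall (log2 change -1.03, SE 0.154, limma adjusted p = 0.0025). With each array left out in turn the change lay between -1.21 and -0.85 and the highest adjusted p was 0.012. KL was measured by 1 probe set, of the kind whose probes can match transcripts of other genes, so its identity rests on the platform annotation. The 3 genes whose centred values lay nearest to those of KL over the 6 arrays were UGCG, PROSER2 and CCN2, at mean absolute differences of 0.181, 0.204 and 0.209.

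The promoters of KL and FGFR3 are shown as those of called members with an entry in the RefSeq table of GRCh38.p14. They are the 250 bases before the start at chr13:33016173-33016422 and chr4:1793043-1793292, both on the plus strand. Capitals mark GC boxes, the letters GGGCGG on either strand, where matches may overlap.
KL: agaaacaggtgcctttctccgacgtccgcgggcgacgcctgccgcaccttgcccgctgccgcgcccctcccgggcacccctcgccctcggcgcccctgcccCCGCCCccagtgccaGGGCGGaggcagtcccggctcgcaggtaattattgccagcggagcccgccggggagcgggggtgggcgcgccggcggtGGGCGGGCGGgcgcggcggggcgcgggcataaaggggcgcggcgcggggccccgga
FGFR3: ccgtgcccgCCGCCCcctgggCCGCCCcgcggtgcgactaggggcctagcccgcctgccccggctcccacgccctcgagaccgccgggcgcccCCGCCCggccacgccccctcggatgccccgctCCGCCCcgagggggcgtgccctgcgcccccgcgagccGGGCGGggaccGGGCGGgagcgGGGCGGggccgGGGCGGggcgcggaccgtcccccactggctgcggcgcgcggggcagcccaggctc
The KL window holds 4 GC boxes at a GC content of 80%, and the FGFR3 window holds 8 at 86.8%. Members that were not called have such windows too, with 7 GC boxes at 79.6% for FGFR4 and 3 at 78.4% for FGFR2. Other windows of FGFR4 and FGFR2 hold fewer or none. GC boxes, which SP1 and its relatives can bind, occur in 42.6% of all windows of this length. KL and FGFR3 moved in opposite directions. Neither window holds the C/EBP-ATF element, which 3.14% of windows hold. The E box, spelled CACGTG and read by MYC and its relatives, is absent from both windows and occurs in 6.34% of all. The TATA box was searched as TATAAA, is in neither window and occurs in 10.7% of all. The nuclear receptor half-site, searched on both strands as AGGTCA, is in neither and occurs in 12.1% of all.

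KLB, which encodes the beta-klotho that FGF19 and FGF21 need, read -0.049, -0.007 and -1e-04 on the control arrays and -0.111, -0.106 and -0.144 on the silenced arrays. The groups did not overlap, but they were close together. The change was -0.10 with a 95% interval of -0.22 to 0.01 (limma adjusted p = 0.27). Its 3 probe sets gave changes from -0.13 to -0.06, all below 0, and none passed (limma, 0 of 3, and 0 at an unadjusted p under 0.05). The KLB promoter window is the poorest in GC of the 11 windows of 6 members, at 39.2%, and holds none of the 5 motifs.

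Of the receptors, FGFR1, the main receptor of FGF21 in adipose tissue, read -0.219, -0.186 and -0.227 on the control arrays. On the silenced arrays it read 0.026, 0.040 and 0.122. The gap between the groups was wider than the range within either, and FGFR1 rose by 0.27 on the log2 scale, or 1.21-fold (SE 0.054, limma adjusted p = 0.010). Its 7 probe sets were unlike each other: 6 gave a change above 0 and 1 below, and 3 passed, all higher. The changes ranged from -0.02 to 0.78. The largest, 0.78, came from a probe set of the kind that can match other transcripts, which read -1.004, -0.685 and -0.444 in control and 0.07, 0 and 0.146 in silenced arrays (probe set 11716548_x_at, limma adjusted p = 0.0061). The 2 other called FGFR1 probe sets, 11727300_a_at and 11727301_a_at, gave 0.35 and 0.38. FGFR1 no longer passed in limma with the median over its probe sets (change 0.13, adjusted p = 0.29) or with the 2 probe sets that can match other transcripts set aside (0.18, adjusted p = 0.11). Leaving out silenced replicate 3 gave 0.24 and an adjusted p = 0.055.

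FGFR3 read -0.289, -0.124 and -0.181 on the control arrays and 0.216, -0.007 and 0.068 on the silenced arrays. The groups did not overlap, with replicate 1 the lowest control and the highest silenced array. FGFR3 rose by 0.29, or 1.22-fold (SE 0.074, limma adjusted p = 0.032). Its 2 probe sets disagreed in size. Probe set 11755786_a_at read -0.447, -0.347 and -0.486 in control and 0.065, 0.026 and 0.077 in silenced arrays, a change of 0.48 (SE 0.065, limma adjusted p = 0.0022). Probe set 11717969_a_at overlapped between the groups and gave 0.10 (SE 0.117, limma adjusted p = 0.70). FGFR3 no longer passed when control replicate 1, control replicate 3, silenced replicate 1 or silenced replicate 3 was left out, with changes from 0.23 to 0.30. Probe set 11755786_a_at still passed without any 1 of the 6 arrays, with changes from 0.45 to 0.52.

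FGFR4, the receptor of FGF19 on hepatocytes, read 0.136, 0.219 and 0.120 on the control arrays and 0.013, 3e-04 and 0.009 on the silenced arrays. The silenced arrays lay close together and below every control. The change of -0.15 (SE 0.054, 95% interval -0.27 to -0.03) did not pass (limma adjusted p = 0.11). All 7 probe sets gave a change below 0, from -0.23 to -0.05, and by limma none passed (0, with 3 at an unadjusted p under 0.05), the nearest being 11740240_a_at at -0.23 (limma adjusted p = 0.052). These probe sets query overlapping transcripts of 1 gene and are not independent. With the median over probe sets FGFR4 was lower by test (change -0.20, adjusted p = 0.041).

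FGFR2, whose splice forms serve epithelial and mesenchymal cells, read 0.052, 0.032 and 0.043 on the control arrays and -0.085, 0.118 and 0.038 on the silenced arrays. The control arrays fell inside the range of the silenced arrays. The change was -0.02 with a 95% interval of -0.16 to 0.13 (limma adjusted p = 0.91). Of its 12 probe sets 8 gave a change below 0 and 4 above, from -0.22 to 0.12, and all 12 had groups that overlapped. FGFR2 thus had the most probe sets of the 8 genes, and none of them was called by limma (0 of 12, and 0 at an unadjusted p under 0.05).

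Over all members 5 of 34 probe sets were called, which is 14.7% against 10.7% of all probe sets. Of these 4 were higher, where 5.82% of all probe sets were, and 1 lower, where 4.85% were. Without control replicate 3 or any 1 of the 3 silenced replicates the count of higher member probe sets was 2, namely 11716548_x_at of FGFR1 and 11755786_a_at of FGFR3. Among all probe sets the count called also fell, from 5261 to between 3252 and 4592 with 1 array left out.

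**Figure D2:**
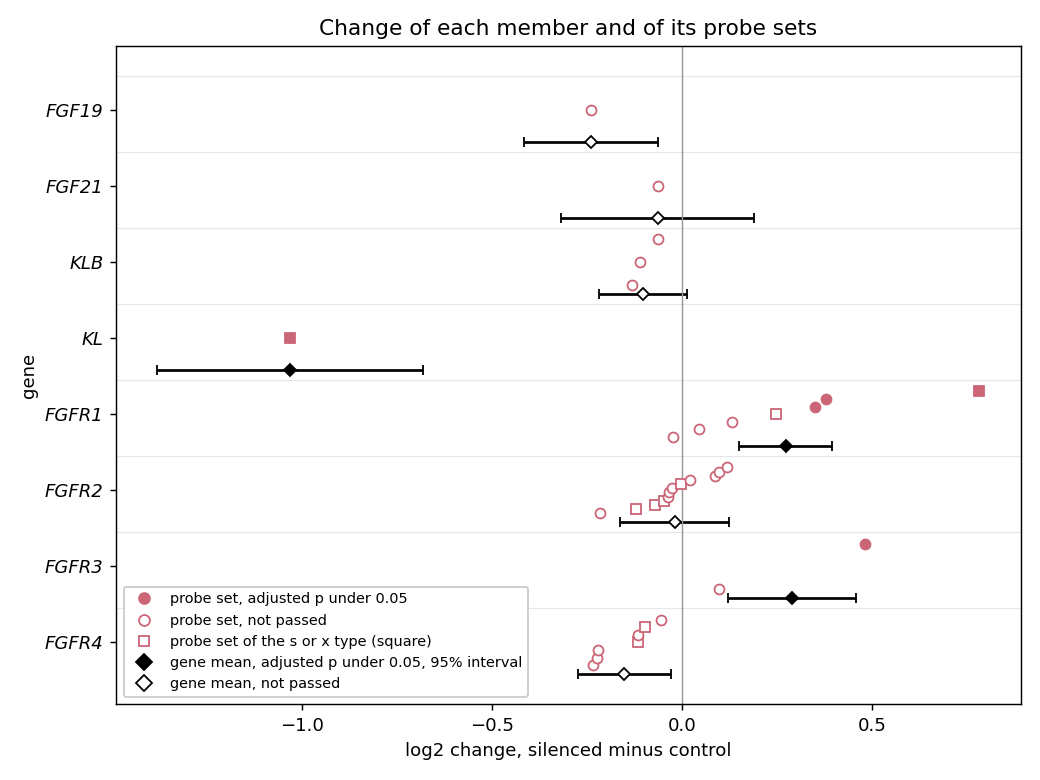
Log2 change, silenced minus control (horizontal axis), of each probe set (circles, or squares for the types that can match other transcripts) and of the gene mean with its 95% interval (diamonds), where filled symbols have a limma adjusted p under 0.05. FGFR1 probe sets spread from -0.02 to 0.78, all 7 of FGFR4 lie below 0, and those of FGFR2 lie on both sides of 0.

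Around the members, 146 of 157 listed pathway gene symbols were measured in 10 lists. The other 11 symbols are not analysed here, FRS2 and NR1H4 among them. ORAOV1, also among them, is an earlier name of the measured LTO1. Of the 146, 16 were higher, 15 lower and 115 did not pass, with 21.2% called against 13.3% of all genes and a median change of -0.016. Without silenced replicate 3 the count of higher genes in these lists was 9, and that among all genes fell from 1295 to 894.

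Of 20 other FGF ligands measured, 2 were lower and 18 did not pass. That is 10% called, near the 13.3% of all genes, with a median change of -0.02. FGF14 was 1.85-fold lower (limma adjusted p = 0.00019), at 0.714, 1.04 and 0.936 on control and 0.063, -0.024 and -0.026 on silenced arrays. FGF11 was 1.29-fold lower (limma adjusted p = 0.0046). FGF11 and FGF14 encode intracellular relatives of the FGFs that bind sodium channels and are not secreted. The 18 that did not pass hold every secreted ligand on the list, with changes from -0.21 for FGF3 to 0.13 for FGF12, itself an intracellular form. No gene passed among the 6 measured klotho relatives, decoy receptor and FGF binding proteins (0 of 6 by limma, and 2 at an unadjusted p under 0.05), where the decoy receptor gene FGFRL1 had a change of 0.17 (SE 0.056, limma adjusted p = 0.093).

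Heparan sulfate, the sugar chain on which paracrine FGFs and their receptors assemble, had the largest share of called genes of the 10 lists. Of 21 genes 8 were higher, 2 lower and 11 did not pass, with a median change of 0.026. That is 47.6% called against 13.3% of all genes, in a list chosen with earlier results of these data known. SDC1, a transmembrane proteoglycan, was 1.69-fold higher (limma adjusted p = 0.00072), at -0.842, -0.518 and -0.628 on control and 0.201, -0.009 and 0.089 on silenced arrays. All probe sets of SDC1 are of the kind that can match other transcripts. SDC2, its relative in hepatocytes and mesenchymal cells, was 1.65-fold lower (limma adjusted p = 8.2e-05), at -0.092, 0.005 and 0.055 on control and -0.753, -0.731 and -0.719 on silenced arrays. HS6ST2, which adds sulfate at a position needed for FGF signalling, was 1.49-fold higher. The other higher genes were the glypicans GPC2, GPC3 and GPC6 and the modifying enzymes HS2ST1, HS3ST1 and GLCE, and the other lower gene was the glypican GPC4. Of these, GLCE no longer passed with control replicate 2 or 3 or silenced replicate 1 or 3 left out, GPC6 with control replicate 2 or any silenced replicate left out, and HS3ST1 with silenced replicate 3 left out. So 2 syndecans moved in opposite directions, as did the glypicans.

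Among adaptors and the RAS-ERK cascade, 1 of 16 measured genes was higher, 1 lower and 14 did not pass. That is 12.5% called, where 13.3% of all genes were. PLCG1, the phospholipase that FGF receptors phosphorylate, was 1.37-fold higher (limma adjusted p = 0.0012). MAP2K1, the kinase MEK1, was 1.21-fold lower, but no longer passed when control replicate 2, control replicate 3, silenced replicate 1 or silenced replicate 2 was left out, with changes from -0.27 to -0.25. Of 20 feedback and target genes of FGF-ERK signalling, 3 were higher, 2 lower and 15 did not pass, with a median of -0.04. That is 25% called against 13.3% of all genes. Cyclin D1 (CCND1) was 1.38-fold lower and the ETS factor gene ETV4 1.22-fold lower, while MYC was 1.22-fold higher, the phosphatase gene DUSP4 1.20-fold higher and ETV1, a relative of ETV4, 1.16-fold higher (limma adjusted p = 0.0497). ETV4 no longer passed when control replicate 2, silenced replicate 1 or silenced replicate 3 was left out. MYC no longer passed when any 1 of 4 arrays was left out, control replicates 1 and 2 and silenced replicates 2 and 3. For DUSP4 these were control replicates 1 and 2 and silenced replicates 1 and 3, and for ETV1 all but control replicate 1. The feedback inhibitor genes SPRY4 and DUSP6 did not pass. The change of SPRY4 was 0.18 (limma adjusted p = 0.11, SE 0.063), and that of DUSP6 was -0.13 (limma adjusted p = 0.43, SE 0.085).

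On the bile acid axis of FGF19, 3 of 18 genes were higher, 2 lower and 13 did not pass, with a median of 0.015. That is 27.8% called against 13.3% of all genes. BAAT, which joins bile acids to glycine and taurine, was 2.26-fold lower (limma adjusted p = 7.2e-06), at 1.08, 1.20 and 1.24 on control and -7e-04, 0 and -0.006 on silenced arrays. ABCB4, the phospholipid exporter of the bile canaliculus, was 1.64-fold higher, and ABCC2, a canalicular exporter of conjugates, 1.51-fold higher. SLC51B, a subunit of the basolateral bile acid exporter, was lower, and NR5A2, an activator of CYP7A1, higher. SLC51B no longer passed when control replicate 2 or 3 was left out, and NR5A2 when any 1 of the 6 arrays was. CYP7A1, the rate-limiting enzyme of bile acid synthesis and the classic target that FGF19 represses, had a change of -0.03 (SE 0.067, limma adjusted p = 0.83). NR0B2, the repressor SHP, had a change of -0.10 (SE 0.090, limma adjusted p = 0.57).

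Of 8 measured proteases and processing enzymes of FGF21, FGF23 and klotho, 1 was lower and 7 did not pass, or 12.5% called against 13.3% of all genes. DPP4, a dipeptidyl peptidase that can trim FGF21, was 1.24-fold lower (limma adjusted p = 0.0072), while FAP, which inactivates it, had a change of -0.06 (SE 0.091, limma adjusted p = 0.79). Of 11 measured genes near FGF19, which is often amplified with them in liver cancer, 1 was lower, CCND1, and 10 did not pass, or 9.09% called. Of 10 genes near FGF21, 1 was lower, BCAT2, 1.21-fold, which no longer passed when replicate 2 or 3 of either group was left out. That is 10% called, so the shares in these 3 lists lie near the share of all genes or below it.

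**Figure D3:**
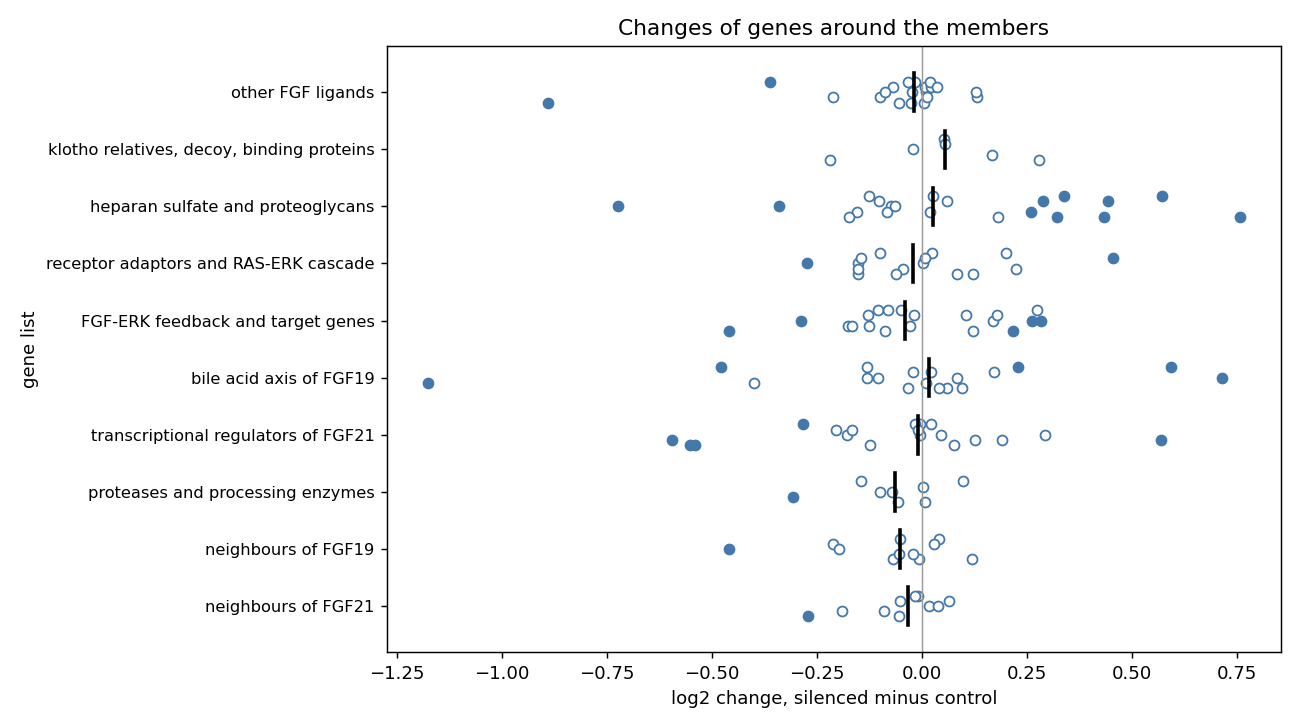
Log2 change, silenced minus control (horizontal axis), of each measured gene in the 10 lists around the members (vertical axis), filled where the limma adjusted p is under 0.05, with a bar at each list's median. The medians lie between -0.064 and 0.053, and heparan sulfate genes have called members on both sides of 0.

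For the called receptors, the genes with the nearest centred values over the 6 arrays were BCL2L11, DLG5 and WDR59 for FGFR1, at mean absolute differences of 0.017, 0.023 and 0.024. For FGFR3 they were MGRN1, PCYT2 and LTBR, at 0.030, 0.037 and 0.039. These differences are smaller than those of the nearest genes of KL, whose values spread more widely.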

How the data were processed

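Gene expression was measured on 1-colour arrays in 2 groups of 3 samples. Per the submitters' processing notes the authors used RMA, of no given version. The deposited values lie near 0 and were taken as log2, RMA's usual scale; they had been centred per probe set, which was worked out from the values. The centring baseline is unknown, but cancels in differences between arrays for the same gene. It does not cancel between genes, so the genes with the nearest centred values depend partly on the centring. The median of each array was 0, exact zeros made up 17% to 21.1% of each array, and 18.1% of the members' probe set values were 0. Such ties can narrow the spread. The number of arrays limits the precision.

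Of 49395 probe sets 102 controls were left out. Gene symbols came from the platform annotation: 44988 probe sets had 1, 1832 several and 2473 none. Probe sets with 1 symbol were averaged per gene. limma 3.58.1 in R 4.3.3 (lmFit, eBayes) was fitted to all 18132 genes, and separately to all 49293 probe sets, with Benjamini-Hochberg adjustment over all of them. No set test was run. In simulated data of the silenced against control comparison with 18132 genes, 83% of genes changed by 0.5 and 98% of those changed by 1 (log2) were called, with 11 false calls. The simulation changed 100 genes at each size, where 2418 were called in the data, and used normal noise without exact zeros. Smaller changes, such as those of FGF19, FGFR1, FGFR3 and FGFR4, were not simulated. Named genes are KCNN4, the members, the 3 largest called changes of each list, a fixed set of regulators and targets, and the 3 nearest patterns of each called member; the other genes named, markers included, were chosen after their values were seen. The members and lists were chosen with earlier results of these data known.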

Additional observations from a re-analysis of the deposited data

How the results depend on the processing

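Alternatives were the most variable probe set or the median over probe sets per gene, specific probe sets only (none whose probes can match other transcripts), quantile normalization, the more variable genes only, array weights, robust eBayes, a replicate block, and each array left out. Quantile normalization of the probe set fit was chosen after seeing the data. The fall of KL passed in each of these except specific probe sets, where it has none. Nor have KCNN4, ATF4, SPRY4, SDC1, DDIT3 and APOA1, whose identity likewise rests on the platform annotation. With the median over probe sets 1 member was higher and 2 lower, FGFR3 being the higher and KL and FGFR4 (-0.20) the lower, while FGFR1 at 0.13 no longer passed. With specific probe sets 1 was called, 1 higher and 0 lower, namely FGFR3, with FGFR1 at 0.18 and FGFR2 turned to 0.0018. With the most variable probe set FGFR2 was 0.12, KCNN4 0.021 and PPARA 0.054. KCNN4 was 0.0014 after quantile normalization and PPARA 0.019 with array weights, which gave 2 lower member probe sets. Replicate numbers did not pair the arrays: the deviations of same-numbered arrays correlated at -0.036, -0.058 and -0.029, and no array correlated best with its own number. Deviations correlated at 0.311 for control 1 with silenced 2, 0.354 for control 2 with silenced 3 and 0.305 for control 3 with silenced 1. The remaining pairs ranged from -0.306 to -0.248. A pairing other than by number was not fitted. With the replicate block 1 member was higher, FGFR1 at 0.27 (limma adjusted p = 0.032), while FGFR3 at 0.29 no longer passed (adjusted p = 0.061), and 2065 genes were called. The block was built from the replicate numbers, so it cannot show how these results depend on a true pairing. With arrays left out in turn, changes ranged from -0.31 to -0.19 for FGF19, -0.13 to 0.070 for FGF21, 0.24 to 0.29 for FGFR1, -0.066 to 0.035 for FGFR2, 0.23 to 0.34 for FGFR3, -0.045 to 0.055 for KCNN4, -0.079 to 0.010 for CYP7A1 and -0.059 to 0.016 for PPARA. Counts ranged from 736 to 1167 for lower genes, from 0 to 2 for higher members, from 1 to 2 for lower members, from 9 to 14 for higher pathway genes, from 3252 to 4592 for called probe sets and from 2 to 4 for higher member probe sets. The ranges were -0.14 to 0.0036 for FAP, -0.025 to 0.093 for LETM2 and -0.036 to 0.063 for STARD13. Over 57 other genes tried under these alternatives, 695 values kept their direction and side of the threshold, 82 no longer passed, 2 newly passed and 9 changed sign, all in CYP7A1, PPARA, FAP, LETM2 or STARD13. The cause of these shifts was not tested.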

Other observations

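The protein-coding genes that flank each member in RefSeq's gene order were read from the same fit, a comparison chosen after seeing the data. Of 15 flanking genes with a value 3 were called and 12 did not pass, where 13.3% of all genes were called, so the count itself says little. TACC1, a coiled-coil centrosomal gene beside FGFR1, was 1.39-fold higher (limma adjusted p = 4e-04), at -0.335, -0.388 and -0.356 on control and 0.117, 0.126 and 0.094 on silenced arrays. LETM1, a gene of mitochondrial ion exchange beside FGFR3, was 1.28-fold higher (limma adjusted p = 0.0037). BCAT2, a branched-chain aminotransferase gene beside FGF21, was 1.21-fold lower (limma adjusted p = 0.022). On the other side of FGFR1 and FGFR3, LETM2 and TACC3 had changes of 0.03 (SE 0.074) and -0.06 (SE 0.055), and STARD13 beside KL had 0.02 (SE 0.067).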
